A study of Mus musculus with 12 samples.

Results

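The comparison between iNKT17 cells and ROR- cells of the B6 mouse strain rested on 4 of the 12 arrays of the series, the 2 titled B6 iNKT17 and the 2 titled B6 ROR-. The arrays were chosen by these titles alone, with no measured value in the choice. Each array carried total RNA of one sample on an Affymetrix whole-transcript design, which reports the summed brightness of a set of probes for each transcript. The values are on a log2 scale, so that a difference of 1 unit is a doubling. All other arrays of the series (2 of B6 gamma-delta 17 cells, 3 of BALB/c iNKT17 cells and 3 of BALB/c ROR- cells) served to estimate the spread, and the BALB/c arrays also gave the same difference in another strain. Both groups compared are given by strain (B6) and cell phenotype (iNKT17 or ROR-) only: the labels name no treatment, transgene or deleted gene. The labels do not give the age, the sex or the organ, the sort that separated the cells, or which antigen receptor the ROR- cells carry. Nothing in them says that arrays of a group stem from different mice. The p-values therefore measure the spread among these samples alone, and that spread may be technical. The protocol in the labels speaks of frozen tissue while the sample names speak of cells, and how the cells were obtained is not known here.

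The iNKT cell, or invariant natural killer T cell, is a T lymphocyte whose nearly fixed alpha-beta receptor recognises lipids presented by CD1d. Such cells leave the thymus as subsets that already resemble helper T cells in what they secrete. The iNKT17 subset responds to interleukin 23 and interleukin 1 and makes interleukin 17 and interleukin 22. The iNKT1 subset depends on T-bet, carries many natural killer (NK) receptors and makes interferon gamma, and the iNKT2 subset makes interleukin 4 and interleukin 13. A population labelled ROR- may therefore hold several subsets. The series concerned the development of mouse iNKT cells and compared B6 with BALB/c mice.

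Of the genes measured, 22180 had a probe set with a single symbol, and 16667 of them were bright enough on at least 2 arrays to be tested. Across these 22180 genes, arrays of one group correlated with r = 0.9911 for the iNKT17 arrays and r = 0.9909 for the ROR- arrays. Between the groups r was 0.9676 to 0.9761. The cell labels were set beside marker lists, which were chosen with earlier results of these data known. Of the 6 tested iNKT17 markers, 5 (Il23r, Il1r1, Ccr6, Il17re and Blk) rose, and the 6 averaged 8.72 and 8.41 on the iNKT17 arrays and 4.64 and 4.81 on the ROR- arrays. The 10 general iNKT and T cell markers averaged 10.19 and 9.98 on the iNKT17 arrays against 10.31 and 10.17 on the ROR- arrays. Zbtb16, which encodes the iNKT transcription factor PLZF, read 7.89 and 8.13 on the iNKT17 arrays and 8.66 and 8.61 on the ROR- arrays, a difference of -0.62 ± 0.20 (SE) that did not pass the threshold (adjusted p = 0.103); it passed without either B6 gamma-delta 17 array (0.0408). The 12 macrophage, monocyte and dendritic markers averaged 4.68 to 4.75 on these 4 arrays and the 13 epithelial and stromal markers 4.27 to 4.33, and no member of either list passed the threshold. The 5 tested neutrophil and mast markers averaged 3.61 to 3.74, and neither they nor the 2 tested erythroid markers passed. Of 5 B cell markers Cd79b, a B cell receptor subunit, rose (1.68 ± 0.29) while Cd79a (-0.75) and Ighm (-1.11) fell, and the list averaged 5.14 to 5.18 on all 4 arrays; without ROR- array 1 none of the 3 passed. The other 6 probe sets of Ighm gave -0.18 to 0.24, and their mean with the one used gave -0.19 (adjusted p = 0.591). In RNA of whole samples, fewer cells of a type and less RNA per cell cannot be told apart, and this applies to every difference below.

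Some arrays outside the comparison stood apart. They enter it through the shared estimate of the spread, the choice of genes bright enough to test and the choice of probe set for each gene. On B6 gamma-delta 17 array 1 the neutrophil and mast list averaged 5.85 against 3.71 on the other array of that group, and Klrd1 read 6.03 against 3.69 and Ly6c2 6.66 against 3.06. On BALB/c ROR- array 2 Il23r read 7.0 against 3.05 and 3.37 on the other arrays of its group. Leaving out the first of these arrays gave 991 genes past the threshold, of which 933 were among the 998 of the full fit, and leaving out the second gave 986, of which 936 were shared.

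A linear model in limma placed 998 of the 16667 genes past the threshold (Benjamini-Hochberg adjusted p under 0.05), which is 5.99% of those tested. In iNKT17 cells 472 genes were higher (2.83%) and 526 lower (3.16%). At least a 2-fold change was seen for 582 of them (3.49%), 261 higher (1.57%) and 321 lower (1.93%), and at least an 8-fold change for 73, 28 higher and 45 lower. The median size of the difference was 1.10 log2 units among the genes past the threshold and 0.16 among all genes tested, with a median SE of 0.18, and the median signed difference over all genes was -0.01. With 2 arrays against 2, the values of 46.4% of all genes did not overlap between the groups (22.5% higher and 23.9% lower in iNKT17 cells), so lack of overlap alone sets few genes apart. The count depended on every one of the 4 arrays: it was 492 without ROR- array 1, 657 without ROR- array 2, 592 without iNKT17 array 1 and 529 without iNKT17 array 2. A core of 387 genes, 174 higher and 213 lower, passed whichever of the 12 arrays was left out, and a gene is called stable below when it belongs to this core.

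**Figure D1:**
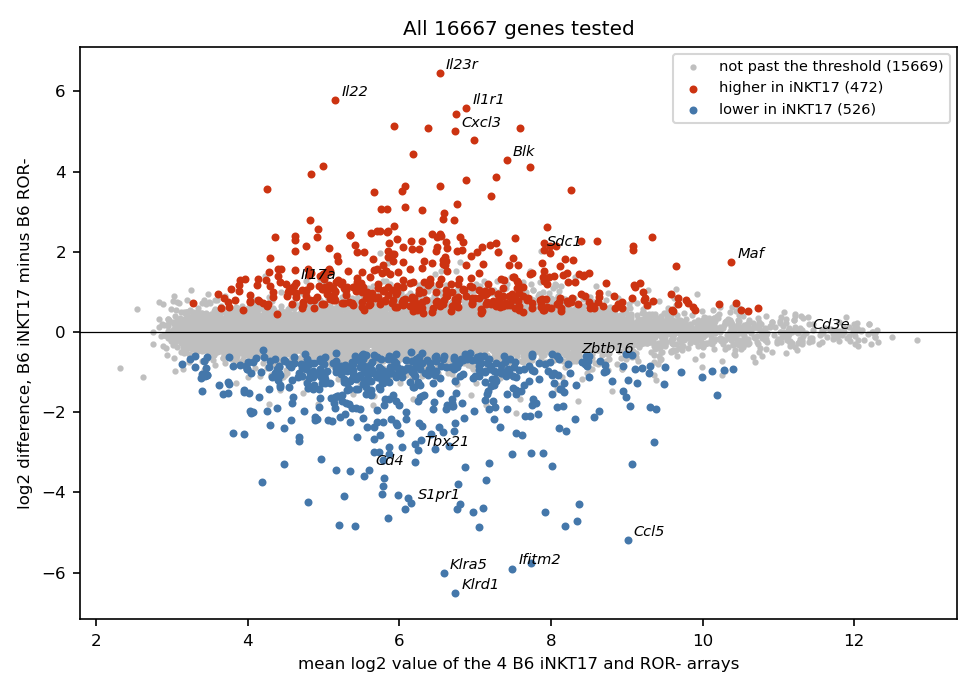
Each point is one of the 16667 tested genes, with the mean log2 value of the 4 arrays on the x axis and the log2 difference B6 iNKT17 minus B6 ROR- on the y axis; red marks the 472 genes higher and blue the 526 genes lower in iNKT17 cells. The points past the threshold reach from -6.51 (Klrd1) to 6.46 (Il23r), while Cd3e (-0.03) and Zbtb16 (-0.62), common to iNKT cells, did not pass, although Zbtb16 did without either gamma-delta 17 array.

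The receptors through which type 17 cells sense interleukin 23 and interleukin 1 were among the largest rises. Il23r, the interleukin 23 receptor chain, read 10 and 9.53 on the iNKT17 arrays and 2.93 and 3.67 on the ROR- arrays, a difference of 6.46 ± 0.95 log2 units (adjusted p = 0.0014), or 88.3-fold. Both iNKT17 arrays were far above both ROR- arrays, but the ROR- mean lay under 3.45, a level below which signal is dim and a fold change uncertain in size. Il1r1, the signalling receptor for interleukin 1, read 9.80 and 9.57 against 4.0 and 4.19, a rise of 5.59 ± 0.49 (adjusted p = 3.72e-05). Ccr6, the receptor for the chemokine CCL20, read 7.32 and 6.71 against 4.35 and 4.61 and rose by 2.53 ± 0.31 (adjusted p = 0.000355). Il17re, a subunit of the interleukin 17C receptor, read 6.52 and 6.47 against 4.44 and 4.24 and rose by 2.16 ± 0.19 (adjusted p = 3.54e-05). These 4 genes were stable. They were the calls of the list: 4 of its 14 tested receptors rose, none fell, and the list's median difference was 0.22 beside -0.01 for all genes. Receptors that other T cells share did not pass the threshold, among them Il7r (-0.32), Il18r1 (-0.38), Il2ra (0.22) and Il12rb1 (0.64). Sdc1, the syndecan that marks iNKT17 cells, read 8.91 and 8.86 against 6.93 and 6.77, a difference of 2.03 ± 0.56 with an adjusted p of 0.0586. Its arrays did not overlap, and it passed without BALB/c ROR- array 1 (adjusted p = 0.00515), BALB/c ROR- array 2 (0.0302) or BALB/c iNKT17 array 2 (0.0382), with array weights (0.033), and with the 4 arrays (9.61e-04) or the 6 B6 arrays (4.86e-04) fitted alone.

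The promoter windows of the leading receptor genes are shown because Il23r and Ccr6 both hold the core of the sequence that ROR receptors bind. They are RefSeq sequences of build GRCm38.p6, from 250 bases before to 50 bases after the first listed start, 5′ to 3′ along the gene's strand. Il23r lies at chr6:67491806-67492105 on the minus strand and Ccr6 at chr17:8235793-8236092 on the plus strand, and capitals mark the match to TAGGTCA (in Ccr6 on the opposite strand).
Il23r: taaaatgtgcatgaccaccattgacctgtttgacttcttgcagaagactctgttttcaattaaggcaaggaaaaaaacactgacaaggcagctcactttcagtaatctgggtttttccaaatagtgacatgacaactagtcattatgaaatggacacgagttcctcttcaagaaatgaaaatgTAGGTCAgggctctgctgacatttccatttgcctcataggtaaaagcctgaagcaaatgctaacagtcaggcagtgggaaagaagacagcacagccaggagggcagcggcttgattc
Ccr6: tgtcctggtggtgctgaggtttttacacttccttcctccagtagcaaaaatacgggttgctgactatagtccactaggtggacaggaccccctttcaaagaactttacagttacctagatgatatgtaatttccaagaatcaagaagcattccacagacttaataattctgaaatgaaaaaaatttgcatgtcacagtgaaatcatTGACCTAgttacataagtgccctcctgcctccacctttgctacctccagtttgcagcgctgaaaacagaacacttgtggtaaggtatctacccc
The same letters, searched on both strands, stood in 2.13% of the 12865 tested genes with a window, in 2.13% of those that rose (8 of 375) and in 0.966% of those that fell (4 of 414). A match to a short motif is a description of the sequence and not a bound site.

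**Figure D2:**
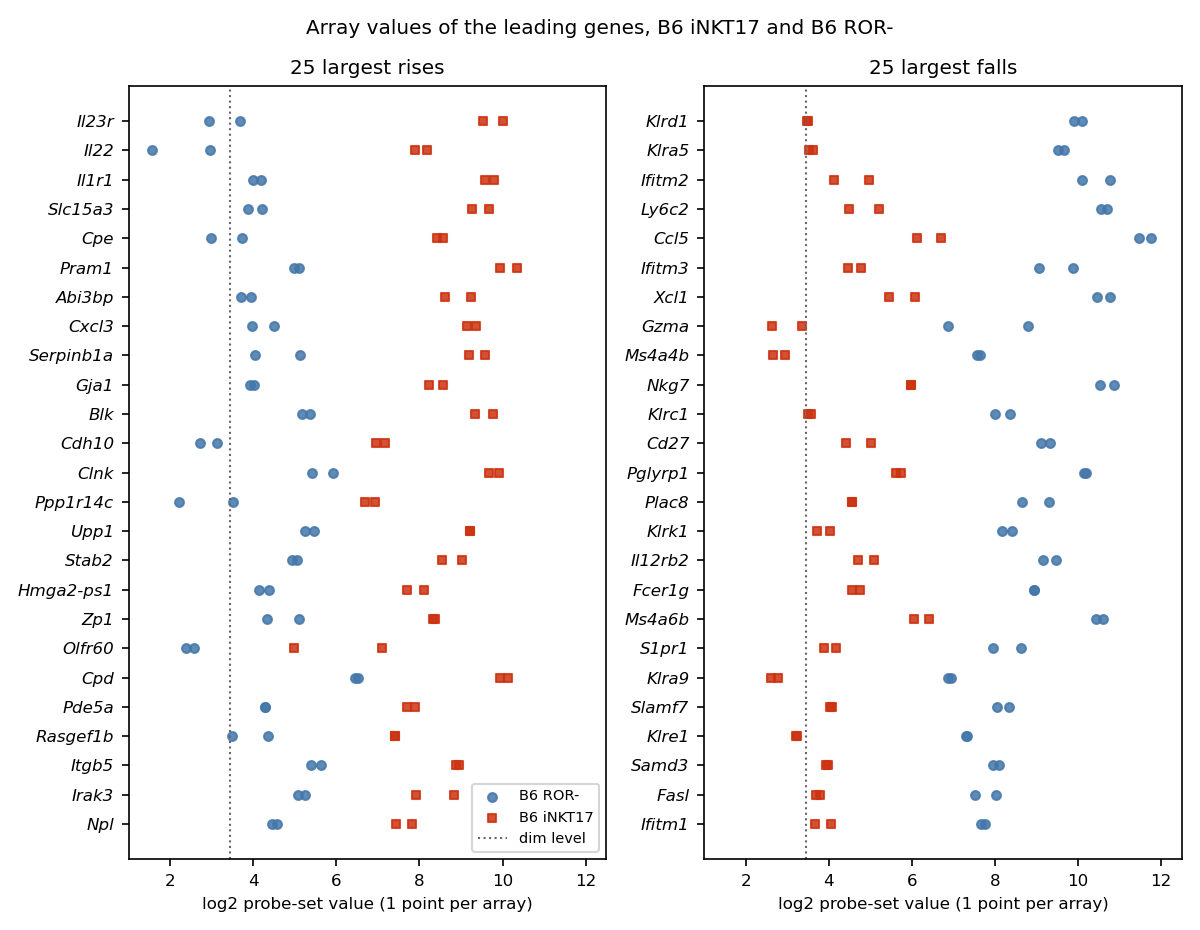
Log2 probe-set values of the 25 largest rises (left) and 25 largest falls (right) by the naming rule, one point per array, red squares for the 2 B6 iNKT17 arrays and blue circles for the 2 B6 ROR- arrays; the dotted line is the dim level of 3.45. The rule took only genes whose groups do not overlap; Gzma and Olfr60 show the widest gaps between arrays of one group.

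In the list of type 17 cytokines Il22 and Csf2 rose, and Il17a missed the threshold. Il22, a cytokine that acts on epithelia, read 8.19 and 7.90 on the iNKT17 arrays and 1.56 and 2.96 on the ROR- arrays and rose by 5.78 ± 1.06 (adjusted p = 0.0063). Both ROR- values were dim, so the size is uncertain, and without ROR- array 1 the difference was 5.09 with an adjusted p of 0.0795. Csf2, which encodes GM-CSF, read 8.0 and 7.12 against 5.84 and 5.02 and rose by 2.13 ± 0.38 (adjusted p = 0.00519), and lost the call without ROR- array 2 (0.057) or iNKT17 array 1 (0.0584). Il17a, the cytokine for which the subset is named, read 5.54 and 4.93 against 3.62 and 4.41. Its difference of 1.22 ± 0.47 did not pass the threshold (adjusted p = 0.203), although the groups did not overlap, and it passed without BALB/c iNKT17 array 3 (0.0476). The B6 gamma-delta 17 arrays, set against the same ROR- arrays, gave 1003 genes past the threshold (6.02%), and 28 genes (0.168%) differed between iNKT17 and gamma-delta 17 cells. On those gamma-delta 17 arrays Il17a read 8.24 and 8.98, above both iNKT17 arrays. Il17f read 5.15 and 4.62 against 4.10 and 4.38 (0.64 ± 0.39, adjusted p = 0.489). In all 2 of 8 tested type 17 cytokine genes rose and none fell, with a median of 0.35, and 1 rose without ROR- array 1, ROR- array 2 or iNKT17 array 1.

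One chemokine ligand stood out. Cxcl3, a ligand that draws neutrophils through CXCR2, read 9.14 and 9.35 on the iNKT17 arrays and 3.96 and 4.50 on the ROR- arrays, a rise of 5.02 ± 0.38 (32.4-fold, adjusted p = 1.17e-05). The gamma-delta 17 arrays read 4.76 and 4.79, near the ROR- level. Its relatives Cxcl2 (1.21 ± 0.43) and Cxcl10 (2.03 ± 0.74) did not pass the threshold. Ccl5, a chemokine of cytotoxic lymphocytes, fell by 5.18 on the log2 scale, from 11.75 and 11.46 on the ROR- arrays to 6.71 and 6.13. Xcl1, which attracts cross-presenting dendritic cells, fell by 4.84, from 10.45 and 10.76 to 5.46 and 6.07. Cxcl3, Ccl5 and Xcl1 were stable. They were the only calls among 15 tested ligands, whose median was 0.01. Ccl20, Ccl3 and Ccl4 were low in both groups, with values from 3.17 to 4.63.

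The transcription factors of the type 17 program passed in both directions. Of 17 tested, 4 rose and 2 fell, with a median of -0.05. Ahr, the aryl hydrocarbon receptor required for Il22 expression in many lymphocytes, read 6.97 and 6.89 against 5.24 and 5.10 and rose by 1.75 ± 0.30 (adjusted p = 0.0042); it was the stable member of this list. Maf, a driver of type 17 T cells, was bright in both groups, at 11.27 and 11.24 against 9.50 and 9.51, and rose by 1.75 ± 0.41 (adjusted p = 0.0253). Runx1 (0.70 ± 0.16) and Nr1d1 (1.22 ± 0.28) also rose. Nfkbiz, the nuclear inhibitor IκBζ that promotes Il17a transcription, fell by 1.02, from 7.92 and 7.79 to 7.10 and 6.58, and Etv5 fell by 0.57. A further probe set of Etv5 gave -0.03. Rora, a nuclear receptor of type 17 cells, read 6.29 and 6.17 against 6.22 and 5.99 and did not pass (0.12 ± 0.14). Leaving out any of the 4 arrays left 1 riser and at most 1 faller in this list: Maf then had adjusted p-values of 0.116 to 0.147, Runx1 of 0.0944 to 0.152 and Nr1d1 of 0.0595 to 0.197.

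Apart from Il1rn (0.2, not past the threshold), the interleukin 1 receptor antagonist, the other type 17 cell genes encode neither cytokines nor their receptors. Their list was chosen with earlier results of these data known. Its share of rises, the highest after the iNKT17 markers, is therefore a description and not a test. Of 18 tested 13 rose and none fell, with a median of 2.21, and all 13 were stable; in BALB/c 15 rose and none fell. Slc15a3, a lysosomal peptide transporter, read 9.67 and 9.26 against 4.2 and 3.87 and rose by 5.43 ± 0.32 (adjusted p = 4.34e-06). Cpe, a prohormone-processing carboxypeptidase, rose by 5.13 ± 0.43 from a dim level, and Abi3bp, an extracellular matrix protein, by 5.10 ± 0.61. Pram1, an adaptor of myeloid signalling, read 10.35 and 9.93 against 5.10 and 4.97 and rose by 5.10 ± 0.50. Serpinb1a, an inhibitor of neutrophil proteases, rose by 4.80 ± 0.46. The paired membrane proteins Tmem176a (2.26 ± 0.36) and Tmem176b (2.15 ± 0.36), the glycerol channel Aqp3 (1.78 ± 0.20), the leukotriene B4 receptor Ltb4r1 (1.47 ± 0.17) and the potassium channel Kcnk1 (2.82 ± 0.17) also rose. Members that did not pass include Ramp1 (0.36 ± 0.19) and Cd163l1 (0.73 ± 0.37).

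The remaining large rises lay outside the cytokine programs. Gja1, which encodes the gap junction protein connexin 43, read 8.22 and 8.57 against 4.02 and 3.91 and rose by 4.43 ± 0.46. Stab2, a scavenger receptor for hyaluronan, rose by 3.78 ± 0.36, the integrin subunit Itgb5 by 3.40 ± 0.18 and the cadherin Cdh10 by 4.14 ± 0.40, the last from a dim level. Among enzymes, the uridine phosphorylase Upp1 rose by 3.86 ± 0.35, the carboxypeptidase Cpd by 3.55 ± 0.24, the cyclic GMP phosphodiesterase Pde5a by 3.51 ± 0.22 and the sialic acid lyase Npl by 3.11 ± 0.34. Irak3, an inhibitor of Toll-like and interleukin 1 receptor signalling, read 8.82 and 7.91 against 5.25 and 5.07 and rose by 3.20 ± 0.43. Ppp1r14c (3.94 ± 0.40), the egg coat gene Zp1 (3.63 ± 0.30), Hmga2-ps1 (3.64 ± 0.42), Rasgef1b (3.50 ± 0.43) and the olfactory receptor Olfr60 (3.57 ± 0.61) rose as well. Another probe set of Ppp1r14c gave 1.44, and the iNKT17 arrays of Olfr60 differed widely, at 7.11 and 4.97. All genes of this paragraph were stable.

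Tbx21 and several type 1 receptors were lower. Tbx21, the gene of T-bet, read 4.77 and 4.78 on the iNKT17 arrays and 7.78 and 7.67 on the ROR- arrays and fell by 2.95 (SE 0.27, adjusted p = 4.15e-05). Il12rb2, the receptor chain that makes cells responsive to interleukin 12, fell by 4.40, from 9.15 and 9.46 to 4.71 and 5.10, and Cxcr3, a chemokine receptor that T-bet induces, fell by 3.36, from 8.12 and 8.98 to 5.31 and 5.07. Il21r fell by 2.38 and Il10ra by 1.79, and these 5 genes were stable. Ifng, the interferon gamma gene, read 3.89 and 4.06 against 6.57 and 8.66. Both iNKT17 arrays were lower, but the ROR- arrays differed by more than 2 log2 units, and the fall of 3.64 (SE 0.90, adjusted p = 0.0341) lost its call without ROR- array 2 (-2.59, adjusted p = 0.248), either iNKT17 array (0.151 and 0.149) or BALB/c iNKT17 array 3 (0.0519). Il2rb, the shared interleukin 2 and 15 receptor chain, fell by 1.57, from 10.95 and 10.98 to 9.29 and 9.51, with an adjusted p of 0.0141 that became 0.0642 to 0.101 without any of the 4 arrays. Tnf went the other way, at 10.12 and 9.24 against 8.40 and 8.61 (1.17 ± 0.29, adjusted p = 0.0318), and lost its call without either ROR- array or iNKT17 array 1 (0.0934 to 0.248). Of 13 tested type 1 cytokine and receptor genes 7 fell and 1 rose, with a median of -0.96; without ROR- array 1, ROR- array 2 or iNKT17 array 1, 5 fell and none rose.

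The other type 1 transcription factors differed less than Tbx21. Of 12 tested, Tbx21 included, 3 fell and 1 rose, with a median of -0.26. Eomes, a close relative of Tbx21, fell by 0.89 but was dim on the iNKT17 arrays (2.96 and 3.06 against 3.83 and 3.97). Hopx, a cofactor of effector T cells, fell by 0.92. Prdm1, which encodes BLIMP1, rose by 0.72 ± 0.15. Runx3 (0.21 ± 0.19), Id2 (-0.26 ± 0.15) and Stat4 (-0.73 ± 0.21) did not pass. Tbx21 and Eomes were stable, while Hopx lost its call without ROR- array 2 (adjusted p = 0.209), iNKT17 array 1 (0.112) or iNKT17 array 2 (0.145), and Prdm1 without ROR- array 2 (0.119) or iNKT17 array 1 (0.118). With the 4 arrays of the comparison fitted alone, 2 of the 12 fell and none rose.

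The cytotoxic genes divided. Nkg7, a granule membrane protein needed for degranulation, fell by 4.71, from 10.53 and 10.86 on the ROR- arrays to 5.98 and 5.99 on the iNKT17 arrays (adjusted p = 0.000165). Fasl, the ligand of the death receptor Fas, fell by 4.03, from 8.03 and 7.53 to 3.79 and 3.70. The granzyme Gzmc fell by 3.35, the cathepsin Ctsw by 3.28 and the granzyme inhibitor Serpinb6b by 1.21. Gzma, the tryptase granzyme, read 2.64 and 3.36 against 6.86 and 8.80; its fall of 4.83 ended at a dim level and lost the call without ROR- array 2 (adjusted p = 0.0585) or iNKT17 array 1 (0.0517). Gzmb, by contrast, was bright and alike on all 4 arrays, at 11.11 and 11.37 against 11.12 and 11.35 (0.01 ± 0.41), and perforin, Prf1, read 6.0 and 5.87 against 5.84 and 5.78 (0.12 ± 0.18). Of 18 tested cytotoxic genes 7 fell and none rose, with a median of -0.32.

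Receptors of the NK gene complex gave the 2 largest falls, Klrd1 and Klra5. Klrd1, which encodes CD94, read 3.48 and 3.49 on the iNKT17 arrays and 10.09 and 9.90 on the ROR- arrays, a fall of 6.51 (SE 0.51, adjusted p = 1.62e-05), or 90.9-fold. Klra5, a receptor of the Ly49 family, fell by 6.01, from 9.65 and 9.52 to 3.52 and 3.63. Klrc1, the NKG2A chain that pairs with CD94, fell by 4.65, and Klrk1, the activating receptor NKG2D, by 4.41. Klra9 fell by 4.23, Klre1 fell by 4.08 and Klrc2 fell by 2.52, all to dim levels, and Klrb1c, the gene of the NK1.1 antigen of B6 mice, fell by 2.49, from 8.06 and 7.59 to 5.26 and 5.40. Against these, the related Klrb1f rose by 1.44 ± 0.24 (8.55 and 8.34 against 7.16 and 6.85) and Klrb1b by 1.11 ± 0.18. In all 10 of the 17 tested receptors of this list fell and 2 rose, with a median of -1.99, and these 12 genes were stable. The list also holds Cd160, Ncr1 and Cd226, which are not receptors of that complex, and Cd160 (-1.25) is among the 10 that fell. Members of the Klra family are close relatives, so that a probe set may read more than one of them.

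Of the adaptors through which such receptors signal, Fcer1g and Tyrobp fell and Hcst did not pass. Fcer1g, the common Fc receptor gamma chain, fell by 4.29, from 8.95 on each ROR- array to 4.74 and 4.57, and Tyrobp, which encodes DAP12, fell by 2.24, from 7.12 and 6.69 to 5.12 and 4.21. Tyrobp lost its call without ROR- array 1 (adjusted p = 0.0513) or iNKT17 array 2 (0.0502). Hcst, the DAP10 adaptor of NKG2D, read 11.38 and 11 against 11.45 and 11.29 (-0.18 ± 0.18, adjusted p = 0.731). The list of conventional NK and innate lymphoid markers, which shares these genes with the lists above, averaged 4.63 and 4.55 on the iNKT17 arrays and 5.99 and 5.96 on the ROR- arrays, and 5 of its 11 tested members fell. Among its members, Ncr1 read 3.72 and 3.47 against 4.74 and 3.94 and did not pass (-0.74), while Eomes, at most 3.97, was lower (-0.89). What part NK cells in the ROR- samples might have in these falls was not tested.

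Genes of unlike function fell alongside the NK receptors. Pglyrp1, a peptidoglycan-binding protein, read 5.62 and 5.73 against 10.20 and 10.14 and fell by 4.49 (adjusted p = 2.85e-05). Samd3 fell by 4.06 and Slamf7, a receptor of the SLAM family, by 4.14. The windows of Nkg7, Pglyrp1 and Samd3 are printed because each holds AGGTGTGA, the element that T-box factors such as T-bet recognise. Nkg7 lies at chr7:43436888-43437187 and Pglyrp1 at chr7:18884440-18884739, and Samd3 at chr10:26229457-26229756, all on the plus strand, with the match in capitals (on the opposite strand in Samd3).
Nkg7: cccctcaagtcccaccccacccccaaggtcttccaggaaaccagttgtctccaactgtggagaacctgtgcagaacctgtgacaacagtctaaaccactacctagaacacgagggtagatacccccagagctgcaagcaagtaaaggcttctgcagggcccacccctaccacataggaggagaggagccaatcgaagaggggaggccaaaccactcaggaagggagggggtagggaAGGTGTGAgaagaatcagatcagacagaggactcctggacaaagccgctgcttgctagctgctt
Pglyrp1: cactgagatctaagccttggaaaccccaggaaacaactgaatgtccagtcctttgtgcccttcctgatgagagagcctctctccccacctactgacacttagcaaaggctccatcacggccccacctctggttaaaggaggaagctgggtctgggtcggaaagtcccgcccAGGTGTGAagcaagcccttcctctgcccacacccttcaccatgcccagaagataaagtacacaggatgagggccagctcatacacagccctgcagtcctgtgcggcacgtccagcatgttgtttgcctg
Samd3: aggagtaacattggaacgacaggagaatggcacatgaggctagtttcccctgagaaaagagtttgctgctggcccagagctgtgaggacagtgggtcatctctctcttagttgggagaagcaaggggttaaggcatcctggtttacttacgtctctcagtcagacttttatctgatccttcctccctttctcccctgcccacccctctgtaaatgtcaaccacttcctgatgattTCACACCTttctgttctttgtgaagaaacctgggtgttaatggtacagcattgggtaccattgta
This element, searched on both strands, stood in 1.10% of all windows, in 2.42% of those of genes that fell (10 of 414) and in 0.267% of those of genes that rose (1 of 375). The numbers of matches are small, and no test was made of them.

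Interferon-stimulated genes were lower in part. The interferon-induced membrane proteins that restrict virus entry led: Ifitm2 fell by 5.90, from 10.10 and 10.76 on the ROR- arrays to 4.12 and 4.96, Ifitm3 by 4.86, from 9.07 and 9.88 to 4.46 and 4.77, and Ifitm1 by 3.85, from 7.66 and 7.76 to 3.66 and 4.05. Their sequences are alike, so their signals may not be separate. Ifit1, which binds foreign RNA, fell by 1.20, and Oas3, which senses double-stranded RNA, by 1.38. Of 23 tested 8 fell and none rose, with a median of -0.49, while Isg15 (-0.42), Oas2 (-0.25), Bst2 (-0.11) and Stat2 (-0.07) did not pass. The 3 Ifitm genes and Ifit1 were stable, while Oas3 lost its call without each of the 4 arrays (adjusted p = 0.066 to 0.154). Without ROR- array 1 the list had 5 fallers, without BALB/c iNKT17 array 3 also 5, and without either iNKT17 array 4; with the arrays centred on their medians, or with the 6 B6 arrays alone, it had 5. Among 16 tested genes of antigen presentation H2-DMa fell by 1.11 and H2-T24 fell by 0.84, the latter not without ROR- array 1, and the median was -0.10.

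The windows of Ifitm2 and Ifitm3 are shown for the interferon response element (GAAA, any 2 bases, then GAAA), in capitals below. They lie on the minus strand at chr7:140955912-140956211 and chr7:141010695-141010994. In Ifitm3 this element occurs at 2 places, and the remaining capitals mark a match to TGANTCA, the element of AP-1 factors.
Ifitm2: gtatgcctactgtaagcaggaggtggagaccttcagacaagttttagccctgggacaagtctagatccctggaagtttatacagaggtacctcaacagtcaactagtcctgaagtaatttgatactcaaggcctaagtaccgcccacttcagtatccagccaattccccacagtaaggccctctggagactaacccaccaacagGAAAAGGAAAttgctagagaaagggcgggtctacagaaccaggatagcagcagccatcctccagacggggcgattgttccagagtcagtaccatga
Ifitm3: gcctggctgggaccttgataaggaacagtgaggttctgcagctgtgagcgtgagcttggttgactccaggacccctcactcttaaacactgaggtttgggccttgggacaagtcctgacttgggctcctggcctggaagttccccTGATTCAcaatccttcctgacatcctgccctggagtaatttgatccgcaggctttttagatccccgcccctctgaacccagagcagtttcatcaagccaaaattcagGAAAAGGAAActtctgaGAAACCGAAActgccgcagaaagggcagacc
Among genes that fell 6.04% of windows held the interferon response element (25 of 414), against 1.60% among genes that rose (6 of 375) and 3.02% among all. For TGANTCA the shares were 7.97%, 4.53% and 5.93%. In the Ifitm3 window no match overlapped another, and both strands were searched.

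The GIMAP family fell as a whole, and the Ly6 and MS4A families in part. All 8 tested GIMAP genes, GTPases that sustain lymphocyte survival, were lower, from Gimap4 at -2.73 ± 0.23 to Gimap8 at -0.79 ± 0.19. Gimap4 read 8.41 and 7.60 against 10.69 and 10.77, so the transcripts stayed well above the dim level in iNKT17 cells. Ly6c2, a surface antigen of memory T cells, fell by 5.76, from 10.69 and 10.54 to 5.22 and 4.49. Ms4a4b, a membrane protein of T cells that associates with GITR, fell by 4.80 to a dim level, Ms4a6b by 4.28, from 10.60 and 10.42 to 6.40 and 6.06, and Ms4a6c by 1.87. Of 5 tested Ly6 genes the other 4 did not pass (Ly6c1 -0.54, Ly6d -0.26, Ly6e 0.20 and Ly6k -0.01), nor did Ms4a4c (-1.26). Of the 17 tested genes of these families 12 fell and none rose, with a median of -1.28, and 8 of the 12 were stable. Gimap1 and Gimap7 lost the call without ROR- array 1 (adjusted p = 0.186 and 0.099) or iNKT17 array 2 (0.146 and 0.114), Gimap9 without each of the 4 arrays (0.0685 to 0.182) and Gimap8 without 3 of them and 1 further array (0.051 to 0.315).

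**Figure D3:**
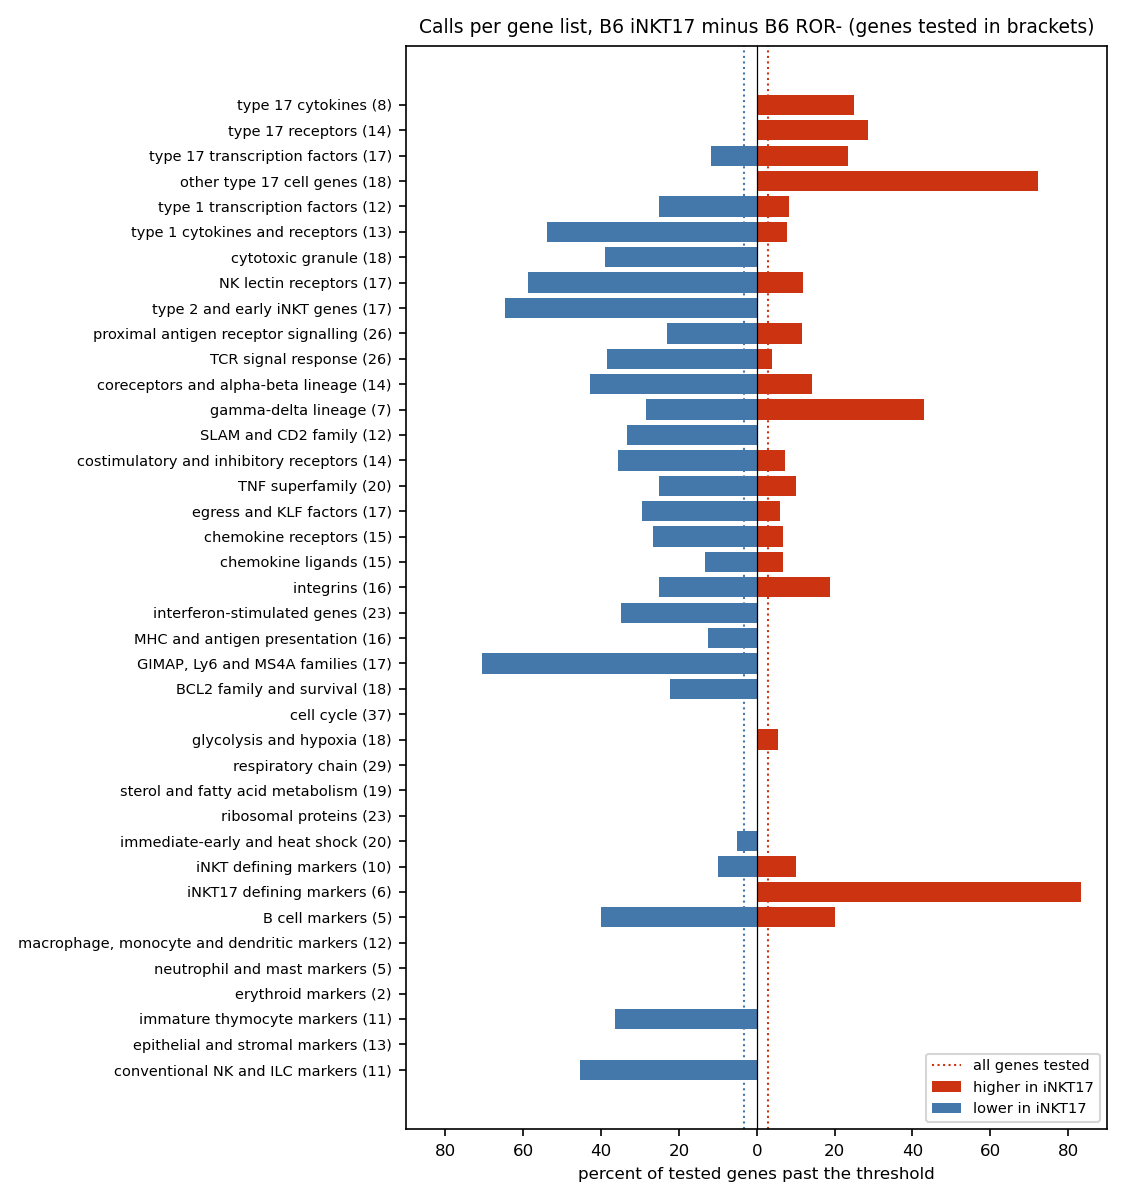
For each of the 39 gene lists, the bars give the percent of its tested genes that passed the threshold, higher in B6 iNKT17 cells to the right in red and lower to the left in blue, with the number tested in brackets; dotted lines mark the 2.83% higher and 3.16% lower of all tested genes. The lists of type 17 cytokines, receptors and other type 17 genes point right, and that of type 17 transcription factors both ways. Those of GIMAP, Ly6 and MS4A families and type 2 and early genes point left. That of NK lectin receptors points mostly left, with 10 of 17 lower and 2 higher. Lists share some genes.

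Among genes of the iNKT2 subset and of early iNKT cells, those that passed were lower in iNKT17 cells. Plac8 read 4.56 and 4.55 against 9.30 and 8.64 and fell by 4.41. Lef1, a transcription factor of thymocytes and early iNKT cells, fell by 3.69, from 9.15 and 8.82 to 5.46 and 5.13, and Izumo1r, the folate receptor family member of iNKT2 cells, by 3.27, from 8.71 and 8.92 to 5.56 and 5.54. Slamf6 fell by 3.45, although another probe set of this gene gave -0.67, and the interleukin 4 receptor chain Il4ra fell by 1.55. Il4 read 7.71 and 7.40 against 8.75 and 8.52 and fell by 1.08 (adjusted p = 0.00743), and its regulator Gata3 fell by 0.85, from 9.09 and 8.73 to 8.11 and 8.0. Il13 was bright in both groups, at 9.47 and 9.98 against 10.77 and 10.82, and did not pass (-1.07 ± 0.55, adjusted p = 0.385); it passed when the 4 arrays were fitted alone (0.0356). Of 17 tested genes 11 fell and none rose, with a median of -1.33. Without ROR- array 1 or iNKT17 array 2, 7 fell: Il4 then had adjusted p-values of 0.0884 and 0.0872 and Gata3 of 0.221 and 0.151, and Gata3 lost its call without iNKT17 array 1 too (0.082).

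Components of antigen receptor signalling changed in both directions. Blk, a Src-family kinase of B cells and type 17 T cells, read 9.78 and 9.33 against 5.18 and 5.36 and rose by 4.28 ± 0.62. Clnk, an adaptor related to SLP-76, read 9.92 and 9.67 against 5.42 and 5.93 and rose by 4.12 ± 0.49. In the other direction the Tec-family kinase Txk fell by 1.67, the phosphatase Ubash3a by 1.38 and Prkcq, the protein kinase C theta of the immune synapse, by 1.31. The CD3 chains did not pass: Cd3e read 11.39 and 11.32 against 11.38 and 11.38, Cd3d differed by -0.28 and Cd3g by -0.25. Nor did the kinase Zap70 (0.29) or the adaptors Lat (0.38) and Lcp2 (-0.06). Of 26 tested genes 3 rose and 6 fell, with a median of -0.26; the third riser, Grap2 (0.53 ± 0.14, adjusted p = 0.0457), lost its call without any of 10 arrays.

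Genes that report receptor stimulation were mostly lower where they changed. Egr3 fell by 2.0, from 7.17 and 7.01 to 5.07 and 5.11, Spry2 by 1.94, Dusp2 by 1.91 and Myc by 1.85, from 10 and 9.93 to 7.79 and 8.44. Cd5, whose level follows receptor signal strength in thymocytes, fell by 1.28, from 9.89 and 9.66 to 8.64 and 8.35. Pdcd1, the gene of the inhibitory receptor PD-1, rose by 2.40 ± 0.18, with 7.79 and 7.72 against 5.22 and 5.49 (adjusted p = 1.14e-05). All 6 were stable. Nr4a1 read 5.78 and 5.94 against 6.60 and 6.25 (-0.56 ± 0.33) and Egr2 5.74 and 6.03 against 6.52 and 6.5 (-0.63 ± 0.24), and neither passed. Of 26 tested genes 10 fell and 1 rose, with a median of -0.55; 6 fell without ROR- array 1 or without iNKT17 array 1.

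The coreceptor Cd4 read close to the dim level in the iNKT17 samples. It read 3.81 and 3.96 against 7.30 and 7.33, a fall of 3.43 (SE 0.19, adjusted p = 3.04e-06). Cd27, a costimulatory receptor whose absence marks type 17 T cells, fell by 4.50, from 9.32 and 9.11 to 5.02 and 4.42. Satb1, a chromatin organiser of thymocytes, fell by 2.40 and the adhesion molecule Cd2 by 2.11, and these 4 genes were stable. Cd28 fell by 1.45, while Cd44, a marker of antigen experience, rose by 0.80 ± 0.19 (7.94 and 7.82 against 7.08 and 7.07). Cd8a read 6.74 and 6.73 against 4.59 and 4.93, with no overlap, but did not pass (1.97 ± 0.70, adjusted p = 0.163); the gamma-delta 17 arrays, which enter its SE, read 8.76 and 5.47. Of 14 tested genes of this list 6 fell and 2 rose, with a median of -0.25, and without any 1 of the 4 arrays none rose and 4 or 5 fell; Cd44 then had adjusted p-values of 0.0953 to 0.142 and Cd28 of 0.0693 to 0.162. Cd4, Satb1 and Ccr9 are also markers of immature thymocytes, a list that averaged 4.69 and 4.61 on the iNKT17 arrays and 5.49 and 5.37 on the ROR- arrays with 4 of 11 tested members lower. All 4 were stable. Ptcra, the pre-T cell receptor chain, read 4.54 to 4.70 on the 4 arrays and Cd24a at most 3.89, and neither passed. Dntt read at most 3.64. What part immature thymocytes might have in these falls was not tested. Of the 7 tested genes of the gamma-delta lineage list, Blk, Maf and 5830411N06Rik (2.09 ± 0.34) rose and Cd27 and Etv5 fell; without any 1 of the 4 arrays 2 rose and 1 fell.

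Other costimulatory and adhesion receptors fell where they passed, with few exceptions. Of 12 tested SLAM and CD2 family genes 4 fell (Slamf7, Slamf6, Cd2 and Ly9) and none rose, with a median of -0.23; Ly9 (-0.73 ± 0.14) lost its call without ROR- array 2 (adjusted p = 0.0631) or iNKT17 array 1 (0.0828). Of 14 tested costimulatory and inhibitory receptors 5 fell and Pdcd1 rose, with a median of -0.34. Cd200r1 fell by 2.54, from 7.98 and 7.39 to 5.31 and 4.98, the inhibitory receptor Btla fell by 2.36, from 6.83 and 6.87 to 4.28 and 4.70, and Cd160 fell by 1.25. Icos was bright in both groups, at 11.20 and 11.05 against 10.99 and 10.81 (0.22 ± 0.16). Among 20 tested genes of the tumour necrosis factor superfamily 5 fell and 2 rose, with a median of -0.13. The receptors Tnfrsf4 (OX40) and Tnfrsf18 (GITR) fell by 1.77 and 1.62 and the death ligand Tnfsf10 (TRAIL) by 1.54, while the lymphotoxin gene Lta rose by 1.43 ± 0.30, from 7.73 and 7.71 to 9.05 and 9.25. Lta lost its call without each of the 4 arrays (adjusted p = 0.0585 to 0.114), Tnfrsf4 without ROR- array 1 (0.106) or iNKT17 array 2 (0.0978), and Tnfrsf18 without either ROR- array (0.0906 and 0.0513) or iNKT17 array 1 (0.0844). The superfamily had 3 fallers and no riser without ROR- array 1 and 4 fallers and no riser without iNKT17 array 1.

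Genes of lymphocyte egress and homing were mostly lower where they passed. S1pr1, the receptor that leads T cells out of thymus and lymph nodes, read 3.89 and 4.18 against 8.62 and 7.96 and fell by 4.26 (adjusted p = 8.25e-05). Klf3 fell by 1.91, and the regulators of G protein signalling Rgs2 and Rgs3 by 1.73 and 0.98, of which Rgs2 lost its call without any of 7 arrays (adjusted p = 0.0541 to 0.209). Klf2, the factor that drives S1pr1, read 5.5 and 5.19 against 6.91 and 7.13; this did not pass in the full fit (-1.67 ± 0.62, adjusted p = 0.188) but did with the 4 arrays alone (0.00418) or the 6 B6 arrays alone (0.00435). Of 17 tested egress genes 5 fell and Klf7 rose (0.84 ± 0.15), with a median of -0.42; without ROR- array 2 or iNKT17 array 1, 3 fell and none rose. Among 15 tested chemokine receptors Ccr6 was the riser, and Cxcr3, Ccr4 (-1.77 ± 0.24), Ccr9 (-1.33 ± 0.22) and Ccr7 (-1.05 ± 0.26) fell; Ccr7 lost its call without any of the 4 arrays and 1 further array (adjusted p = 0.0513 to 0.274). Cxcr6, a receptor common to iNKT cells, read 11.52 and 11.32 against 11.08 and 10.95 (0.41 ± 0.21, adjusted p = 0.385).

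Integrins passed in both directions. Itgb5 rose by 3.40, from 5.63 and 5.39 to 8.88 and 8.95 (adjusted p = 3.04e-06), Itga5, the fibronectin receptor alpha chain, by 1.53 ± 0.13 and Itgae, the CD103 chain that binds E-cadherin, by 1.0 ± 0.20, from 8.52 and 8.92 to 9.82 and 9.62. The collagen receptor chain Itga1 fell by 1.5 to a dim level, Itgb3 by 1.19, the leukocyte chain Itgb2 by 0.84 and Itga6 by 0.60. Of 16 tested 3 rose and 4 fell, with a median of -0.06. Itgae lost its call without ROR- array 1 (adjusted p = 0.133) or iNKT17 array 1 (0.0912), and Itga6 without any of 7 arrays (0.0537 to 0.226).

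Genes of growth and metabolism gave few calls. None of the 37 tested cell cycle genes passed, although their median difference was 0.80. The list averaged 7.94 and 8.57 on the iNKT17 arrays and 7.22 and 8.04 on the ROR- arrays, so that arrays of one group differed by as much as the groups. In both groups the array numbered 2 was the higher, and whether the shared number pairs the samples is not known. With the replicate number fitted as a block, none of these genes passed either. Mki67, the proliferation marker, read 9.82 and 10.29 against 8.70 and 9.68 (0.86 ± 0.80, adjusted p = 0.714). None of the 29 respiratory chain, 19 sterol and fatty acid or 23 ribosomal protein genes passed, with medians of 0.09, 0.32 and -0.27; with the 4 arrays fitted alone 2 ribosomal protein genes fell. Of 18 glycolysis and hypoxia genes Egln3 rose (1.37 ± 0.36, adjusted p = 0.0479) and lost its call without any of 8 arrays. Among 20 immediate-early and heat shock genes, which respond to cell handling, Ier3 fell by 2.17, from 7.56 and 6.78 to 5.23 and 4.77, and the list's median was -0.41. Bcl2 read 9.05 and 9.16 against 9.89 and 9.68 (-0.68 ± 0.36, adjusted p = 0.408) and passed with the 6 B6 arrays alone (0.0409). Of 18 genes of the BCL2 family and survival list 4 fell (Bcl2l11, Bid, Pim1 and Traf1), by 0.53 to 1.10, a count that was 0 without ROR- array 2 or iNKT17 array 2 and at most 3 without any other array; for Pim1 a further probe set gave -0.28.

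The position of the genes was not used in choosing them, and several of the calls lay side by side. Ordered along RefSeq chromosomes, 63 of the called genes formed 17 runs of at least 3 neighbouring tested genes with the same direction. The longest run held all 8 GIMAP genes, from Gimap8 to Gimap3 on chromosome 6. On the same chromosome Klre1, Klrd1, Klrk1, Klrc2 and Klrc1 made a run of 5 lower genes (-6.51 to -2.52), and Klri2, Klrh1, Klra5, Klra9 and Styk1 another (-6.01 to -0.67). A 4-gene run there joined Cd27 with Vamp1, Tapbpl and 4930417O13Rik. On chromosome 19 Ms4a4b, Ms4a6c, BE692007, Gm8369 and Ms4a6b were lower (-4.80 to -1.87), and Ifitm2, Ifitm1 and Ifitm3 were neighbours on chromosome 7. Chromosome 6 had the highest share of called genes of any chromosome, 9.92%, with 30 higher and 53 lower of 837. Several of these runs are families of related genes, which may share probe signal as well as position.

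Among the other runs some held neighbours of unlike function. Pram1 lay beside Myo1f, a myosin of leukocyte motility (0.81 ± 0.19), and the zinc finger gene Zfp414 (2.04 ± 0.21, 10.34 and 9.87 against 8.07 and 8.06) on chromosome 17. Stab2 lay between Nt5dc3 (0.69 ± 0.17) and 1700113H08Rik (1.54 ± 0.35) on chromosome 10, Hmga2-ps1 beside Cep170 (1.66 ± 0.15) and Sdccag8 (0.88 ± 0.21) on chromosome 1, and the keratin genes Krt27, Krt28 and Krt10 (0.60 to 1.56) lay together on chromosome 11. Receptor chains of the interferon and interleukin 10 families, Ifnar1 (-0.95 ± 0.20) and Il10rb (-0.83 ± 0.15), were lower with A930006K02Rik between them on chromosome 16. Several weaker members lost their call when one array was left out, among them Nt5dc3, Myo1f and Ifnar1 with any of the 4, and the number of runs was then 4 without ROR- array 1, 8 without ROR- array 2 and 6 without either iNKT17 array.

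**Figure D4:**
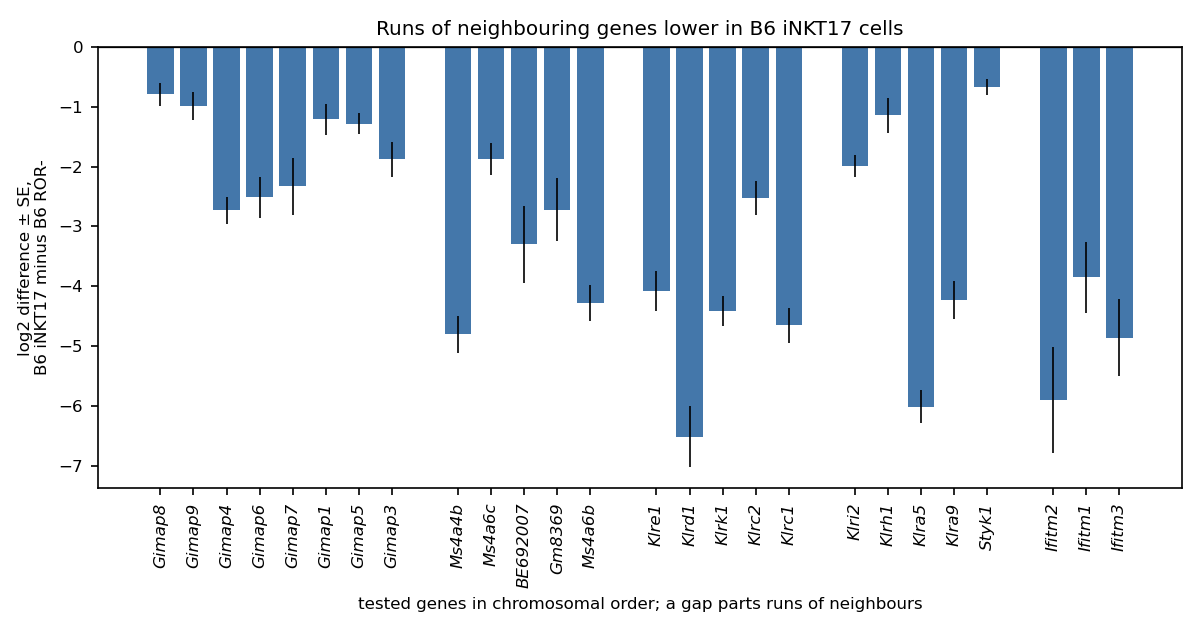
Bars give the log2 difference B6 iNKT17 minus B6 ROR- with its SE for 5 runs of neighbouring genes, in chromosomal order within a run (the GIMAP, MS4A, CD94 and NKG2, Ly49 and IFITM runs from left to right). A run holds only genes called in the same direction, and the runs drawn are lower ones, so every bar lies below 0 by choice. The bars reach from -0.67 (Styk1) to -6.51 (Klrd1), and runs differ in size among their own members.

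The BALB/c arrays gave the same comparison from separate samples, 3 against 3, with no array in common. Both strains share the estimate of each gene's spread, however, so their calls are not independent. There 1161 genes (6.97%) passed, 676 higher (4.06%) and 485 lower (2.91%), and 678 genes passed in both strains with the same direction, 356 higher and 322 lower, which is 67.9% of the B6 calls and 58.4% of the BALB/c calls. Of the 998 genes called in B6, 970 had the same sign in BALB/c. The share with the same sign among all genes tested was not computed. A call in one strain and not in the other does not show a difference between strains, so the difference itself was tested as an interaction. It passed for 14 genes (0.084%), and for 669 at an unadjusted p under 0.05 (4.01%).

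Where the B6 difference was the larger, Cxcl3 led the rises. It rose by 5.02 in B6 and by 1.87 in BALB/c, where the iNKT17 arrays read 4.46, 5.95 and 4.82. Frmd5, a protein of the cell cortex, read 7.38 and 6.80 against 4.64 and 4.53 in B6 (2.50 ± 0.26) and differed by 0.22 ± 0.21 in BALB/c. The keratin Krt24 rose by 2.10 ± 0.21 in B6 and differed by 0.31 ± 0.17 in BALB/c. Among falls, Klra9 fell by 4.23 in B6 and differed by -0.67 ± 0.26 in BALB/c, where all 6 arrays read 2.05 to 3.62. Gpnmb, a glycoprotein of macrophages and other cells, read 4.59 and 4.29 against 7.20 and 7.39 in B6 and fell by 2.86, while the 6 BALB/c arrays read 3.44 to 3.99 with no difference (0.00 ± 0.17 in size). Gimap4 fell by 2.73 in B6 and by 0.68 in BALB/c, Klri2 by 1.99 against -0.32 ± 0.15, Ifit1bl1 by 3.75 and 2.12, and Fcrl1 and Serpinb6b fell by 1.01 and 1.21 in B6 but differed by 0.40 ± 0.14 and 0.36 ± 0.15 in BALB/c.

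The other 4 genes differed less in B6 than in BALB/c. Cd2 fell by 2.11 in B6 and by 4.02 in BALB/c. BC064078 differed by 0.42 ± 0.19 in B6 and 2.30 ± 0.15 in BALB/c, the membrane metalloprotease Mmp14 by 0.37 ± 0.13 and 1.90 ± 0.11, and the hypoxia-inducible factor Epas1 by -0.23 ± 0.18 and 1.30 ± 0.15, and none of these passed in B6. Without 1 of the 4 B6 arrays the interaction passed for 0 to 2 genes, and without BALB/c ROR- array 1, 2 or 3 for 4, 6 and 4 and without BALB/c iNKT17 array 1 or 3 for 4 each. Probe sequences can match one strain better than another, and the strain-specific levels were not checked by another method.

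**Figure D5:**
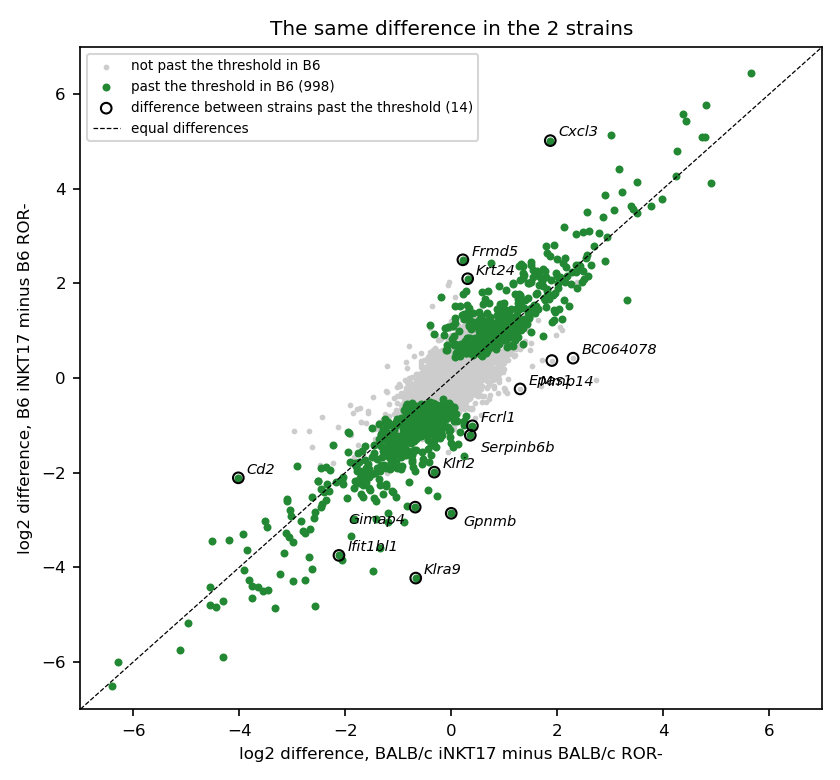
Log2 difference iNKT17 minus ROR- in BALB/c (x axis, 3 against 3 arrays) and in B6 (y axis, 2 against 2 arrays) for every tested gene, green where it passed the threshold in B6 and circled where the difference between strains passed. Of the genes called in B6, 970 of 998 have the same sign in both strains, and this share was not computed for all genes tested. Of the circled genes Cxcl3 (5.02 against 1.87), Klra9 (-4.23 against -0.67) and Gpnmb stand farthest from equal differences.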

How the data were processed

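The authors deposited one table of 41345 probe sets by 12 arrays, on a scale read here as log2 from its range; per the submitters' processing notes oligo was the tool, but the sources used here give neither its version nor its steps. The deposited log2 values were used without further normalization; the median per array was 4.10 to 4.30. Symbols came from GEO's platform annotation, which can be old: 23521 had 1 symbol, 1814 several and 16010 none given here, and 1082 genes with more than 1 probe set were read from the brightest by mean over 12 arrays. Genes were kept for testing if 2 or more arrays exceeded the dim level of 3.45, the 30th percentile of named probe sets (16667 tested, 5513 set aside).

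A group-means model over the 5 groups of 12 arrays was fitted with limma 3.58.1 in R 4.3.3 (lmFit and eBayes; 7 residual and 4.5 prior degrees of freedom), with Benjamini-Hochberg adjustment over the genes tested and a threshold of 0.05. The step was tested on simulated data. The number of arrays limits the precision, and an exact permutation test of 2 against 2 arrays cannot give a p below 0.333.

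Members and the 39 lists (542 genes tested of 655) were chosen with earlier results of these data known, so lists are described by counts and medians without a test. The 185 genes named by rule were the 25 largest rises and falls past the threshold, at least 2-fold and without overlap, except predicted or clone-named genes; up to 5 members each way of each list that passed; a set of anchor genes; the interaction genes; and the 10 longest runs of neighbours. Other list members are named as examples. Gene order and promoter sequences came from RefSeq (GRCm38.p6; 144 of the 185 genes had a window), without converting coordinates. Alternatives were 2 further normalizations, 2 filters, 2 smaller sets of arrays, trend with robust variances, array weights, a replicate block, the mean of a gene's probe sets, and leaving out each array. Trdc, Trac and Tcf7 were not analysed here.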

Additional observations from a re-analysis of the deposited data

Results flagged for a closer look

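These 14 genes were picked out because the difference between iNKT17 and ROR- cells was itself different in B6 and BALB/c mice by limma's interaction test (Benjamini-Hochberg adjusted p between 0.00334 and 0.0495). Given as the B6 difference minus the BALB/c difference in log2 units, it was 3.15 for Cxcl3, 2.29 for Frmd5, 1.91 for Cd2 and 1.79 for Krt24. On the other side it was -3.56 for Klra9, -2.86 for Gpnmb, -2.05 for Gimap4, -1.88 for BC064078, -1.67 for Klri2, -1.62 for Ifit1bl1, -1.57 for Serpinb6b, -1.54 for Mmp14, -1.52 for Epas1 and -1.41 for Fcrl1. Gpnmb lost this call under 1 alternative (without B6 ROR- array 2, adjusted p = 0.0507) and Klra9 under 4, each without 1 of the 4 B6 arrays; the other 12 lost it under 5 to 15 alternatives.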

How the results depend on the processing

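With 2 arrays a group, each array of the comparison bears on the count of calls. Leaving out one array at a time gave 492 to 1058 genes past the threshold, 226 to 502 higher and 266 to 556 lower, 0 to 15 for the difference between strains, 119 to 165 of the named genes, 103 to 149 of the list genes and 4 to 19 runs of neighbours. Of the 168 named genes past the threshold, 108 kept the call whichever array was left out and 136 kept it under every other alternative. For the difference between strains 9 genes passed with each array centred on its median, 9 with quantile normalization and 2 with the replicate block. Array weights gave 26 runs of neighbours. Cd3e, not past the threshold, turned from -0.03 to 0.02 (adjusted p = 0.984) with quantile normalization and to 0.01 (0.999) without B6 iNKT17 array 2, and lay between -0.07 and 0.01 over the arrays left out in turn. The other normalizations, filters, smaller sets of arrays, robust variances and array weights gave 862 to 1238 calls.

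The replicate number shared by the groups was fitted as a block once: 800 genes passed, 768 of them among the 998, and 149 of the named genes. The numbers were not taken to pair the samples. Deviations of same-numbered B6 iNKT17 and ROR- arrays correlated with r = 0.465, but there are only 2 such pairs. With 2 arrays a group the deviations mirror each other, so both pairs must give the same value and differently numbered arrays -0.465. In BALB/c, where 3 arrays a group are not mirror images, the 3 same-numbered pairs gave -0.46, -0.34 and 0.141.

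Falls to, and rises from, a level under 3.45 are limited by signal: 22 risers had a dim ROR- mean and 43 fallers a dim iNKT17 mean. The names follow an old annotation, genes read by a probe set with several symbols were not tested, and relatives in a family may share signal.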

Other observations

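Further genes outside the lists changed by several-fold in B6 iNKT17 cells; they were chosen after their values were seen, from those that passed whichever array was left out. Igf1r, the receptor of insulin-like growth factor 1, read 7.39 and 7.19 on the iNKT17 arrays and 4.53 and 3.92 on the ROR- arrays (3.06 ± 0.37 log2 units). Susd2, a surface protein, rose by 3.08 ± 0.18, the C1q-related receptor Cd93 by 2.51 ± 0.18, and the transcription factors Arnt2 and Hlf by 2.33 ± 0.20 and 2.18 ± 0.23. Furin, the proprotein convertase, and its neighbour Fes, a tyrosine kinase, rose by 2.28 ± 0.28 and 2.02 ± 0.34. Furin was bright on all 4 arrays, at 9.54 and 9.53 against 7.09 and 7.43.

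Falls chosen in the same way included genes of granule traffic and of the membrane. Lyst, which controls the size of lytic granules, read 6.49 and 6.26 against 9.75 and 9.05 and fell by 3.02, and Sytl2, a granule docking protein, fell by 3.24, from 7.71 and 7.96 to 4.17 and 5.01. The tetraspanins Cd81 and Cd9 fell by 3.78 and 2.51, the phospholipid-binding protein Anxa1 by 3.04, the potassium channel Kcnn4 fell by 2.46 and the ectonucleotidase Entpd1, or CD39, fell by 2.22. Igfbp4, a binding protein of insulin-like growth factors, fell by 2.84, from 7.89 and 8.25 to 5.36 and 5.10.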
